A study of Mus musculus with 16 samples.

Results

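The 10 genes described here form the core of the mammalian circadian clock together with its direct outputs: *Clock*, *Arntl* (also named *Bmal1*), *Per1*, *Per2*, *Per3*, *Cry1*, *Cry2*, *Nr1d1*, *Dbp* and *Ciart*. They were chosen by name, as 10 of the 35328 genes of the count table, and each was found once by its Ensembl identifier. All 10 passed the count filter, which kept 17830 genes for testing. Their poly(A) RNA was sequenced from the dorsal hippocampus, the brain region on which spatial learning in the mouse depends, in 16 male C57BL6/J mice, wild-type animals of a common laboratory strain, at 4 mice per group and 1 library per mouse. Home cage water mice drank plain water and stayed in their cages, and home cage caffeine mice drank 0.3 g/L caffeine, an antagonist of adenosine receptors, for 2 weeks. Learning water and learning caffeine mice had the same drinks, were habituated to a pool on 2 days, were then trained for 3 days in the Morris water maze, in which a mouse swims to find a hidden platform, and were killed 1 hour after the last trial. Treatment began at 8 to 9 weeks of age. All mice were kept on a cycle of 12 hours of light and 12 hours of darkness and were killed within a period of 2 hours. The clock hour of that period and the hour at which each mouse was killed are not given in the sources used here, so training and hour of sampling cannot be told apart, nor can learning be told apart from swimming, handling or stress, since no group swam without training.

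The clock is a feedback loop of transcription that runs in nearly every cell. CLOCK and BMAL1, the product of *Arntl*, bind E-boxes as a pair and switch on the *Per* and *Cry* genes, whose proteins gather in complexes and shut the pair down again. A second loop runs through *Nr1d1*, whose product REV-ERBα represses *Arntl*, and *Dbp* carries the rhythm to D-box genes, while the product of *Ciart* (CHRONO) also represses the CLOCK-BMAL1 pair. The hippocampus keeps such a clock under the lead of the suprachiasmatic nucleus, and *Per1* and *Per2* are also known as genes that light, neuronal activity and glucocorticoids can induce directly, outside the loop.

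The binding motifs of these factors were looked up in the promoters of the members as a description of their sequence. Whether the factors bind these sites in the hippocampus was not tested. RefSeq (GRCm38.p6) gave 13 windows from 250 bases before to 50 bases after a transcript start for 9 of the 10 members; the entry for *Per2* was missing. Each line below gives the 250 bases before the start on the gene's own strand, 5′ to 3′, with the matched motif in capitals, for *Per1*, *Per3*, *Cry1*, *Nr1d1* and *Ciart*. *Cry2* and *Arntl*, which also hold a match, are described without their sequence.
Per1: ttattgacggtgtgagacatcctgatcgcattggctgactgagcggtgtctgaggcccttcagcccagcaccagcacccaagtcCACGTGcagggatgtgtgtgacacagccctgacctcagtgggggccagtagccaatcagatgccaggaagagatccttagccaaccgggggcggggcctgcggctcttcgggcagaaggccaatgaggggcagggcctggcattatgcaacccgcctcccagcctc
Per3: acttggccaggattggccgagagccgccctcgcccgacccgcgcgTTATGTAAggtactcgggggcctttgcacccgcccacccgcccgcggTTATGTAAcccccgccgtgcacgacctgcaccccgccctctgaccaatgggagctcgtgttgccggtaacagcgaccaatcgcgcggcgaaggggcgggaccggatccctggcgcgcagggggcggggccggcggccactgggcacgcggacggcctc
Cry1: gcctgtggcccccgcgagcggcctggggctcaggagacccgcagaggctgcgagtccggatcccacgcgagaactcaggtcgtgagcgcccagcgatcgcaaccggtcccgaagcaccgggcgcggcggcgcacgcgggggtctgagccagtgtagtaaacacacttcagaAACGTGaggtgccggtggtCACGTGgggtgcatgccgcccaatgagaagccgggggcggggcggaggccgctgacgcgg
Nr1d1: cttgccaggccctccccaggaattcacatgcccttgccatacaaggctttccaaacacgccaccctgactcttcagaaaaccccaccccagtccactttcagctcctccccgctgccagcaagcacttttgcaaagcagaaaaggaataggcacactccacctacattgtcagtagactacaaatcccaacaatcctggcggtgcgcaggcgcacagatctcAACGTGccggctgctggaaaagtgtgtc
Ciart: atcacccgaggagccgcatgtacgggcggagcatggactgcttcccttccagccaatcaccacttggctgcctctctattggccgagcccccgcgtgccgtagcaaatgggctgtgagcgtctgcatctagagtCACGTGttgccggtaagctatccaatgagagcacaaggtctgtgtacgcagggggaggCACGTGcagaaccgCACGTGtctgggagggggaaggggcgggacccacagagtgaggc
These stretches lie at chr11:69098699-69098948 (plus strand) for *Per1*, chr4:151044666-151044915 (minus strand) for *Per3*, chr10:85185055-85185304 (minus strand) for *Cry1*, chr11:98775378-98775627 (minus strand) for *Nr1d1* and chr3:95882229-95882478 (minus strand) for *Ciart*. The *Ciart* stretch held the E-box CACGTG at 116, 58 and 44 bases before the start. The *Per1* stretch held 1 E-box, 166 bases before the start of one of its alternative first exons, and the *Cry1* stretch held an E-box at 60 bases and the E′-box CACGTT, read on the other strand as AACGTG, at 79 bases. The *Per3* stretch held no E-box but held the D-box TTATGTAA at 205 and at 158 bases. The *Nr1d1* stretch held an E′-box at 28 bases, as did *Cry2* at 166 bases, and 1 of 2 *Arntl* windows held the ROR element TAGGTCA, the class of site that REV-ERBα binds, 30 bases after its start. No match shared a base with another. Searched on both strands, CACGTG stood in 7.15% of the 32817 mouse windows of this length, CACGTT in 4.69%, TTATGTAA in 0.935% and TAGGTCA in 2.61%, while at least 3 copies of CACGTG stood in 0.0884% and at least 2 copies of TTATGTAA in 0.0213%. The second D-box form TTACGTAA (0.119% of all windows), the second ROR form TGGGTCA (3.98%), the cAMP response element TGACGTCA (1.79%) and the glucocorticoid receptor palindrome ACANNNTGT (6.85%) had no match in the members' windows, and neither the *Dbp* window nor any *Clock* window held a motif searched.

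Between 23078094 and 49949281 reads were counted per library (home cage 23078094 to 41841785, learning 30861776 to 49949281), and in all 24 pairs of libraries of the same group the counts differed by more than sampling noise (chi-square per degree of freedom 5.26 to 30.4). The summed level of 8 markers of hippocampal neurons ranged from 6148 to 7537 CPM (counts per 1000000 of the TMM-scaled library total) and overlapped between all groups. Of 8 markers of the suprachiasmatic nucleus and hypothalamus, *Six6* and *Nms* reached at most 4 and 2 counts in any library and *Prok2* at most 8. *Hcrt*, *Pmch* and *Lhx1* reached at most 14, 20 and 22 counts, and *Avp* had 3 to 56. *Vip*, which hippocampal interneurons also express, had 308 to 1044 counts. The summed level of 10 choroid plexus markers differed between the groups, at 310 to 2379 CPM in home cage water mice, 196 to 511 in home cage caffeine mice, 168 to 441 in learning water mice and 119 to 208 in learning caffeine mice. On average of both drinks 9 of the 10 were called lower after learning. Under water 5 were called lower (0.331% of all genes) and under caffeine 0 (2.13%), at median log2 fold changes of -1.64 and -0.71. For caffeine against water in the home cage all 10 had an unadjusted p under 0.05 in edgeR (3.57% of all genes), at a median of -1.67, and none was called. Of the other marker lists, microglia had 2 of 5 genes called lower on average. Hippocampal neurons (1 of 8), thalamus (1 of 7), astrocytes (1 of 6) and endothelial cells (1 of 5) had 1 each, and none was called higher on average. Among all genes, 6.71% were called lower and 7.81% higher on average. Under caffeine, thalamus had 1 gene called higher and 1 lower. None of the 6 oligodendrocyte markers was called, but all 6 had log2 fold changes above 0 with learning under water (median 0.21) and below 0 under caffeine (median -0.41). The part of tissue composition in the clock results was tested only through the choroid plexus covariate. Home cage caffeine replicate 17, with the highest mitochondrial share of counts (4.49%), lay farthest out on the first principal component, and home cage water replicate 20 had the highest choroid plexus level. The mitochondrial share also moved with the main contrast, at 3.46 to 4.49% in the 8 home cage mice and 3.23 to 3.59% in the 8 learning mice, where replicate 27 alone lay in the home cage range. Its part in the results was not tested. Called members that lose their call without these 2 mice, or with the choroid plexus level as a covariate, are named beside the result. In bulk tissue, fewer cells that carry a transcript and less of it per cell cannot be told apart.

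Compared per kilobase of exon, *Cry2* was the most abundant member, at 25.9 ± 1.24 CPM/kb (SD, n = 16 mice), followed by *Nr1d1* at 22.4 ± 3.22, *Dbp* at 17.2 ± 2.74, *Per1* at 12.8 ± 2.91 and *Clock* at 8.84 ± 0.664 CPM/kb. *Per2* (8.05 ± 2.77 CPM/kb), *Per3* (5.87 ± 1.24), *Arntl* (5.02 ± 0.851), *Cry1* (4.44 ± 0.751) and *Ciart* (2.98 ± 0.762) were lower. The ranges of all 9 neighbouring pairs overlapped over the 16 mice, and within a mouse the order held in 16 of 16 mice for *Nr1d1* above *Dbp* and for *Cry1* above *Ciart*, but in only 9 of 16 for *Clock* above *Per2* and for *Arntl* above *Cry1*. These orders turned with learning. *Clock* was above *Per2* in 8 of 8 home cage mice (8.56 ± 0.694 against 5.52 ± 0.474 CPM/kb, SD) and in 1 of 8 learning mice (9.13 ± 0.528 against 10.6 ± 1.28 CPM/kb). *Arntl* was above *Cry1* in 8 of 8 home cage mice and in 1 of 8 learning mice, and *Per3* was above *Arntl* in 2 of 8 home cage mice and in 8 of 8 learning mice. The members also differed in how far they varied: the coefficient of variation over all 16 mice was 4.77% for *Cry2* and 7.51% for *Clock*, against 34.4% for *Per2*, 25.6% for *Ciart* and 22.7% for *Per1*, values that include the difference between the groups. Within the groups it was 7.06 to 14.1% for *Per2* and 7.78 to 13.4% for *Per1*, against 12.4 to 21.0% for *Ciart*, 7.54 to 22.4% for *Dbp* and 11.2 to 16.6% for *Nr1d1*, and *Cry2* stayed lowest at 3.08 to 5.55%.

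The main contrast asked how the clock transcripts of trained mice differed from those of mice left in the home cage. *Per1* and *Per2* were higher after learning under both drinks, *Per3* and *Ciart* were called higher and *Arntl* lower under caffeine, and with both drinks averaged *Cry1* was higher as well. *Clock*, *Cry2*, *Nr1d1* and *Dbp* did not pass the test in any learning contrast. In counts, 2 of 10 members were called higher and none lower under water, 4 higher and 1 lower under caffeine, and 5 higher and 1 lower on average (edgeR's quasi-likelihood test, called at an adjusted p under 0.1 over all 17830 genes). Among all genes tested, 0.97% were called under water (0.639% higher and 0.331% lower), 5.28% under caffeine (3.16% higher and 2.13% lower) and 14.5% on average (7.81% higher and 6.71% lower). The median log2 fold change of the members was 0.23 under water, 0.21 under caffeine and 0.22 on average, and that of all tested genes was -0.0055, -0.012 and -0.013. The groups did not overlap for 3 members under water (*Per1*, *Per2* and *Per3*; 7.01% of all genes), for 4 under caffeine (these and *Arntl*; 10.9%) and for the same 3 *Per* genes when all 8 home cage mice were set against all 8 learning mice (1.31%).

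**Figure D1:**
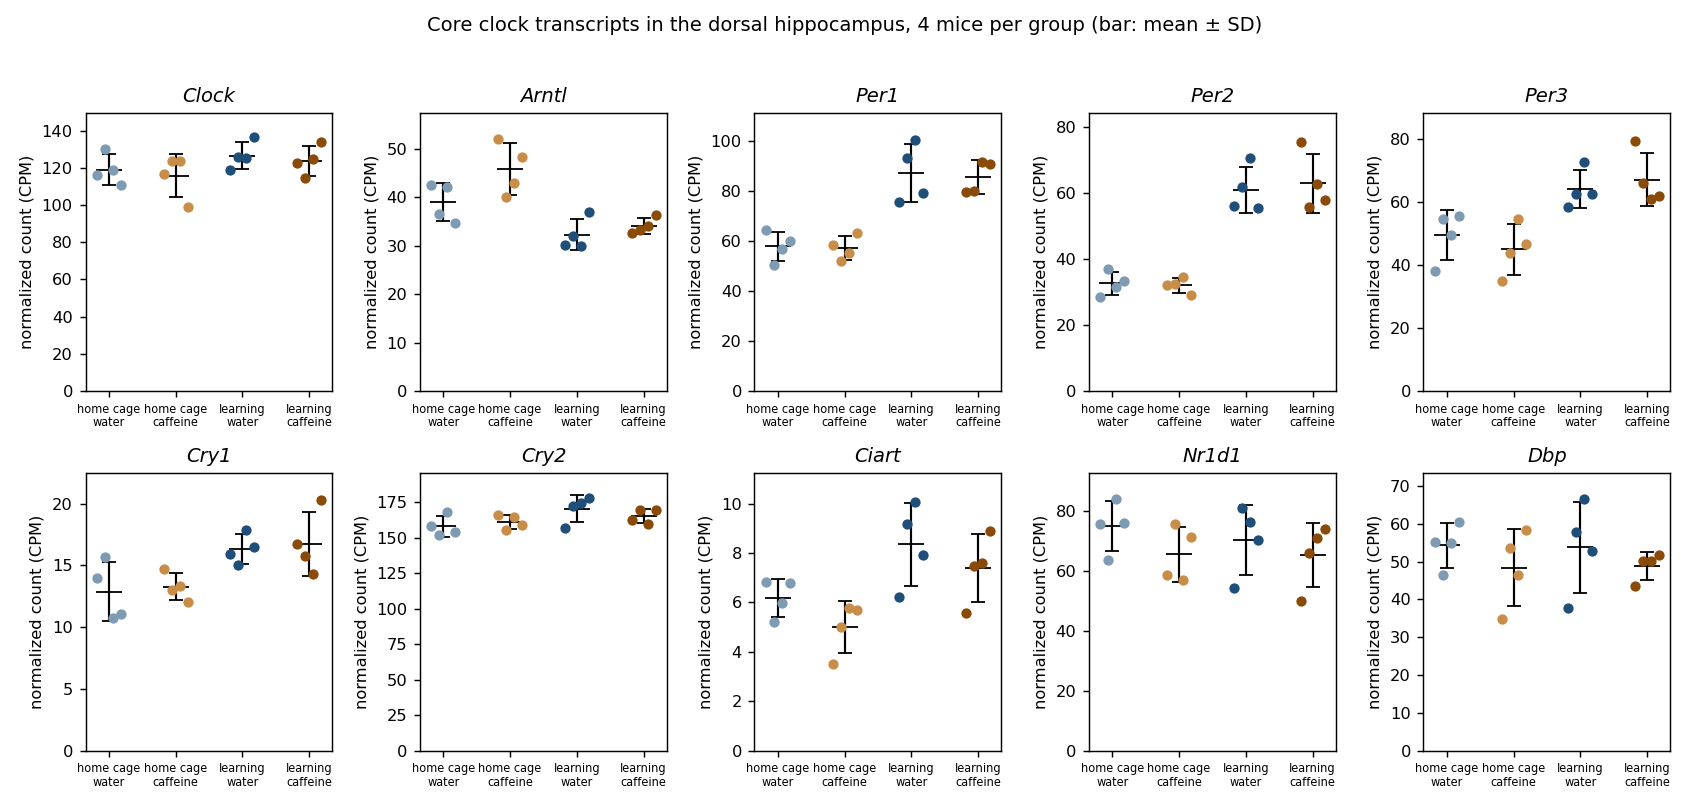
Normalized count (CPM, vertical axis from 0) of each clock transcript in every mouse, with 1 panel per gene and the 4 groups on the horizontal axis; bars give the mean ± SD of 4 mice. The learning mice stand above all home cage mice for *Per1*, *Per2* and *Per3*, while *Clock*, *Cry2*, *Nr1d1* and *Dbp* stay in the same range.

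*Per2* (ENSMUSG00000055866, chromosome 1 from 91415982 to 91459324, minus strand, mm10), a core repressor of the loop, showed the largest change among the members. Home cage mice had 28.4, 37.0, 31.6 and 33.3 CPM with water (replicates 6, 8, 11 and 20) and 32.3, 32.5, 34.5 and 29.0 CPM with caffeine (replicates 2, 9, 14 and 17). Learning mice had 56.0, 61.7, 70.6 and 55.4 CPM with water (replicates 24, 33, 36 and 38) and 75.5, 55.8, 62.7 and 57.7 CPM with caffeine (replicates 22, 27, 30 and 40). Every learning mouse was above every home cage mouse, with a gap between 37.0 and 55.4 CPM. The log2 fold change was 0.90 ± 0.10 (SE, adjusted p = 2.43e-04 in edgeR's quasi-likelihood test) under water and 0.97 ± 0.10 (SE, adjusted p = 9.56e-05) under caffeine, and averaged over both drinks the level was 1.91-fold higher (log2 0.94, 95% interval 0.79 to 1.09).

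*Per1* (ENSMUSG00000020893, chromosome 11 from 69095217 to 69109960, plus strand), a repressor of the same family that stimuli also induce quickly, rose by a smaller factor. With the mice in the same order, home cage levels were 64.6, 50.6, 56.7 and 60.0 CPM with water and 58.6, 52.3, 55.3 and 63.4 CPM with caffeine. After learning they were 75.6, 93.2, 101 and 79.5 CPM with water and 79.9, 80.1, 91.8 and 91.2 CPM with caffeine. The lowest learning mouse, replicate 24, still exceeded the highest home cage mouse, replicate 6. The log2 fold change was 0.59 ± 0.093 (SE, adjusted p = 0.0062 in edgeR's quasi-likelihood test) under water and 0.58 ± 0.093 (SE, adjusted p = 0.0039) under caffeine, and 1.498-fold on average. With the choroid plexus level as a covariate the fold change under water was 0.40 and no longer called (adjusted p = 0.180 in edgeR). That under caffeine was 0.49 (adjusted p = 0.0100 in edgeR), and *Per2* stayed called under both drinks. Among all genes the covariate left 11 called higher and 6 lower under water, against 114 and 59 without it.

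*Per3* (ENSMUSG00000028957, chromosome 4 from 151003652 to 151044665, minus strand), the least essential *Per* gene, had 38.1, 54.5, 49.6 and 55.5 CPM in home cage water mice and 35.1, 43.7, 54.7 and 46.7 CPM in home cage caffeine mice. Learning mice had 58.6, 62.7, 72.8 and 62.6 CPM with water and 79.4, 66.2, 61.1 and 61.9 CPM with caffeine. The groups did not overlap, but home cage mice 20 and 14, at 55.5 and 54.7 CPM, came close to learning mouse 24, at 58.6 CPM. The log2 fold change was 0.58 ± 0.13 (SE, adjusted p = 0.0260 in edgeR's quasi-likelihood test) under caffeine and 0.37 ± 0.13 (SE, adjusted p = 0.241) under water, where the call was not made, and 0.47 on average (adjusted p = 0.0046). For the 3 *Per* genes the exact two-sided permutation test gave p = 0.0286 under each drink, the smallest value that 4 mice against 4 allow.

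*Cry1* (ENSMUSG00000020038, chromosome 10 from 85131700 to 85185064, minus strand) and *Cry2* (ENSMUSG00000068742, chromosome 2 from 92403646 to 92434043, minus strand) encode the repressors that join PER proteins. *Cry1* had 13.97, 15.7, 10.7 and 11.1 CPM in home cage water mice and 14.7, 13.05, 13.3 and 12.0 CPM in home cage caffeine mice. After learning it had 15.9, 15.1, 17.9 and 16.5 CPM with water and 16.7, 15.7, 14.3 and 20.3 CPM with caffeine, so that the groups overlapped through home cage mouse 8 under water and learning mouse 30 under caffeine. The log2 fold change of *Cry1* was 0.35 (adjusted p = 0.251 in edgeR) under water and 0.33 (adjusted p = 0.148) under caffeine, and the average of 0.34 ± 0.086 (SE) was called, with an adjusted p of 0.0235. It was not called with the choroid plexus covariate (0.23, adjusted p = 0.248 in edgeR). *Cry2* was 160 ± 5.95 CPM in the home cage and 168 ± 7.52 CPM after learning (SD, n = 8 mice each), an average log2 fold change of 0.072 with a 95% interval from -0.0017 to 0.15 that was not called (adjusted p = 0.206 in edgeR). Of its 6320 exon bases, 295 (4.67%) overlap a transcript on the other strand, *D930015M05Rik*.

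The activators of the loop differed from each other. *Arntl* (ENSMUSG00000055116, chromosome 7 from 113207465 to 113314126, plus strand), the only member called lower, had 42.6, 36.5, 42.2 and 34.8 CPM in home cage water mice and 51.9, 40, 42.9 and 48.3 CPM in home cage caffeine mice. After learning it had 30.2, 32.0, 30.0 and 37.0 CPM with water and 32.6, 33.1, 34.0 and 36.3 CPM with caffeine. Under caffeine all learning mice were below all home cage mice, and under water learning mouse 38 lay above home cage mice 8 and 20. *Arntl* had a log2 fold change of -0.43 ± 0.089 (SE, adjusted p = 0.0174 in edgeR's quasi-likelihood test) under caffeine, and under water it was -0.27 ± 0.090 (SE, adjusted p = 0.217). On average it was at 0.783 of its home cage level (log2 -0.35, adjusted p = 0.0028 in edgeR). *Clock* (ENSMUSG00000029238, chromosome 5 from 76209868 to 76304792, minus strand), the partner of BMAL1, had 117 ± 9.53 CPM in the home cage and 125 ± 7.25 CPM after learning (SD, n = 8 each), with an average log2 fold change of 0.093 (95% interval -0.015 to 0.20, adjusted p = 0.270 in edgeR).

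*Nr1d1* (ENSMUSG00000020889, chromosome 11 from 98767932 to 98775333, minus strand), the repressor of *Arntl*, was not called in any learning contrast. It had 63.8 to 84.2 CPM in home cage water mice, 57.0 to 75.5 in home cage caffeine mice, 54.2 to 80.9 in learning water mice and 49.9 to 74.0 in learning caffeine mice. The ranges overlapped throughout, and its average log2 fold change was -0.048, with a 95% interval from -0.25 to 0.15. *Dbp* (ENSMUSG00000059824, chromosome 7 from 45705088 to 45710203, plus strand), the output factor, had 46.4 to 60.5 CPM in home cage water mice, 34.9 to 58.4 in home cage caffeine mice, 37.8 to 66.5 in learning water mice and 43.5 to 51.8 in learning caffeine mice. Its average log2 fold change was 0.0012, with a 95% interval from -0.23 to 0.23. Both genes lie against a neighbour on the other strand: 263 of the 3077 exon bases of *Nr1d1* (8.55%) overlap *Thra* and 539 of the 2993 of *Dbp* (18%) overlap *Sphk2*. The library kit keeps the strand, but whether the counting used it is not given in the sources used here.

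*Ciart* (ENSMUSG00000038550, chromosome 3 from 95878503 to 95882251, minus strand), the member with 3 E-boxes in its promoter, was the scarcest, with 116 to 389 counts per library. Home cage mice had 6.82, 5.19, 5.99 and 6.77 CPM with water and 3.51, 4.99, 5.79 and 5.69 CPM with caffeine. Learning mice had 6.2, 9.18, 10.1 and 7.91 CPM with water and 5.57, 7.49, 7.58 and 8.89 CPM with caffeine. In each drink 1 learning mouse, 24 with water and 22 with caffeine, lay within the home cage range. The log2 fold change was 0.43 ± 0.18 (SE, adjusted p = 0.340 in edgeR's quasi-likelihood test) under water and 0.57 ± 0.18 (SE, adjusted p = 0.0970) under caffeine, and the average of 0.50 had an adjusted p of 0.0222. The call under caffeine was made in only 6 of the 16 fits that each left out 1 mouse (adjusted p from 0.0610 to 0.227 in edgeR, the highest without learning caffeine replicate 40), and it was not made without home cage replicates 17 and 20 (adjusted p = 0.136). Neither the call under caffeine nor the average call was made with the choroid plexus covariate (adjusted p = 0.176 and 0.235).

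**Figure D2:**
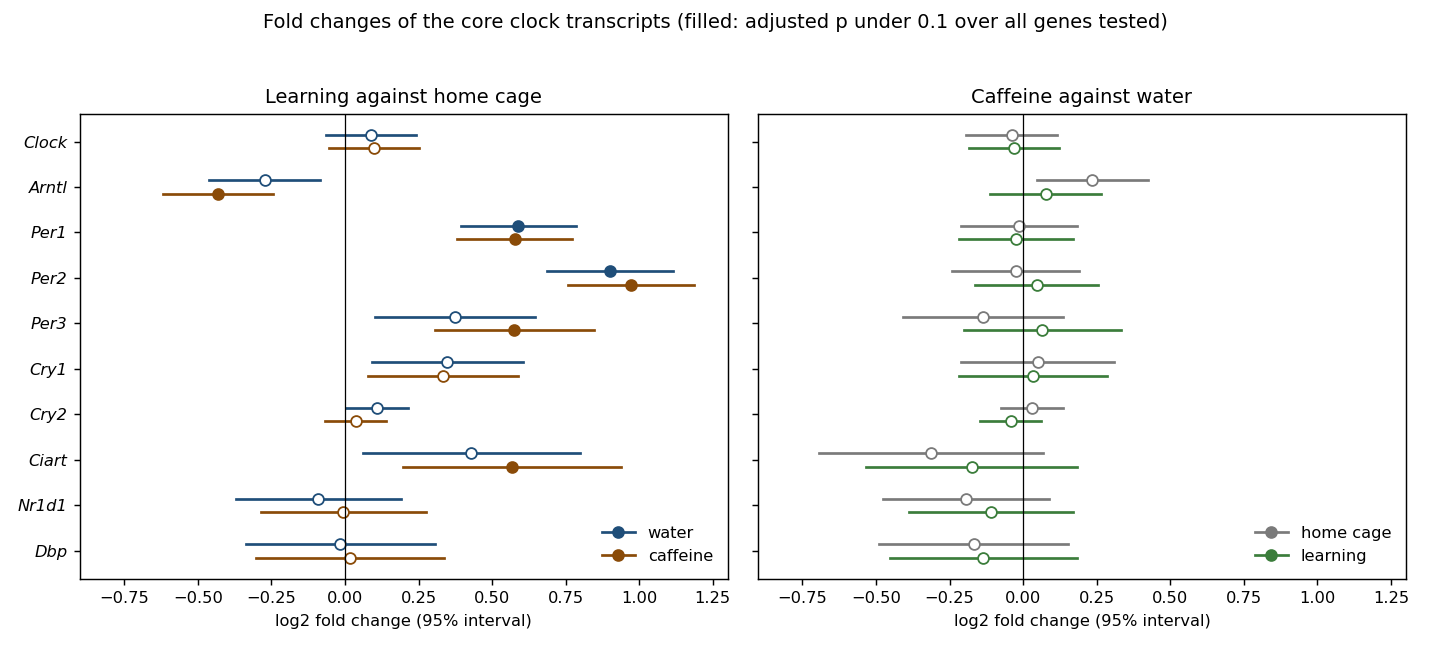
Log2 fold changes of the 10 clock transcripts (horizontal axis) with 95% intervals, for learning against home cage under each drink (left) and for caffeine against water in each condition (right); filled points have an adjusted p under 0.1 over all 17830 genes. Filled points stand only in the left panel, at *Per1* and *Per2* under both drinks and at *Per3*, *Ciart* and *Arntl* under caffeine.

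Caffeine against water asked whether the drink itself shifted the clock transcripts. No member was called in the home cage, after learning or on average of both conditions by edgeR's quasi-likelihood test or by DESeq2, as was the case for all genes tested in edgeR (0% called in each of the 3 contrasts). At an unadjusted p under 0.05 there was 1 member in the home cage (3.57% of all genes), none after learning (3.93%) and 1 on average (4.07%), in each case *Arntl*. In the home cage *Arntl* had 45.8 ± 5.35 CPM with caffeine and 39.0 ± 3.97 CPM with water (SD, n = 4 each). The ranges overlapped, from 34.8 to 42.6 CPM with water and from 40 to 51.9 CPM with caffeine. Its log2 fold change was 0.24 (95% interval 0.048 to 0.42, adjusted p = 0.997 in edgeR), and after learning it was 0.076 (95% interval -0.11 to 0.26). For *Per2* the interval of the caffeine effect was -0.24 to 0.19 in the home cage and -0.16 to 0.25 after learning, and for *Per1* it was -0.21 to 0.18 and -0.22 to 0.17. *Ciart* had the widest interval, from -0.69 to 0.067 in the home cage. The groups overlapped for all 10 members in these contrasts. Among all genes they did not overlap for 1.99% in the home cage, 2.6% after learning and 0.00561% on average. At such low shares, overlap in all 10 does not set the members apart from other genes.

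Although 5 members were called under caffeine and 2 under water, the difference between the learning responses itself was not called for any member or any other gene by edgeR (0%), and none of the 10 had an unadjusted p under 0.05, against 3.63% of all genes. The learning responses of *Arntl*, *Per3* and *Ciart* were lower by 0.16, higher by 0.20 and higher by 0.14 on the log2 scale under caffeine than under water, with 95% intervals of -0.42 to 0.11, -0.18 to 0.58 and -0.38 to 0.66. For *Per1* and *Per2* the differences were -0.012 (-0.29 to 0.26) and 0.071 (-0.23 to 0.37).

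The 23 other genes of the clock loops and their modifiers were all tested. On average of both drinks 5 were called higher and 2 lower after learning, under caffeine 3 and 1, and under water 0, where 6 had an unadjusted p under 0.05 (11.8% of all genes). The shares of all genes called were 14.5% on average and 5.28% under caffeine. *Usp2*, a deubiquitinase that acts on clock proteins, had 60.7 to 73.7 CPM in home cage water mice and 63.4 to 83.1 in home cage caffeine mice, and 50.0 to 58.6 and 50.9 to 58.6 CPM after learning. All learning mice were below all home cage mice, and its average log2 fold change was -0.33 ± 0.056 (SE, adjusted p = 0.0020 in edgeR's quasi-likelihood test). *Npas2*, which can stand in for CLOCK as the partner of BMAL1, was also called lower on average (log2 -0.34, adjusted p = 0.0750). Its ranges overlapped, at 14.8 to 24.5 CPM in the home cage, highest in caffeine replicate 17, and 11.2 to 17.9 CPM after learning. Of the activators, *Arntl* and *Npas2* were thus called lower on average and *Clock* was not called. Called higher were the E-box repressor *Bhlhe40* (0.40, adjusted p = 0.0171), the D-box repressor *Nfil3* (0.32, adjusted p = 0.0223), the relative of REV-ERBα *Nr1d2* (0.27, adjusted p = 0.0268) and the D-box activators *Tef* (0.23, adjusted p = 0.0049) and *Hlf* (0.25, adjusted p = 0.0560). Thus *Tef* and *Hlf*, of the same family as *Dbp*, were called and *Dbp* was not, and *Nr1d2* was called and *Nr1d1* was not; the difference within either pair was not tested. The kinases *Csnk1d*, *Csnk1e* and *Gsk3b*, the ubiquitin ligase parts *Fbxl21*, *Btrc* and *Fbxw11*, and the ROR genes *Rora* and *Rorb*, which activate *Arntl*, were not called in any learning contrast.

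**Figure D3:**
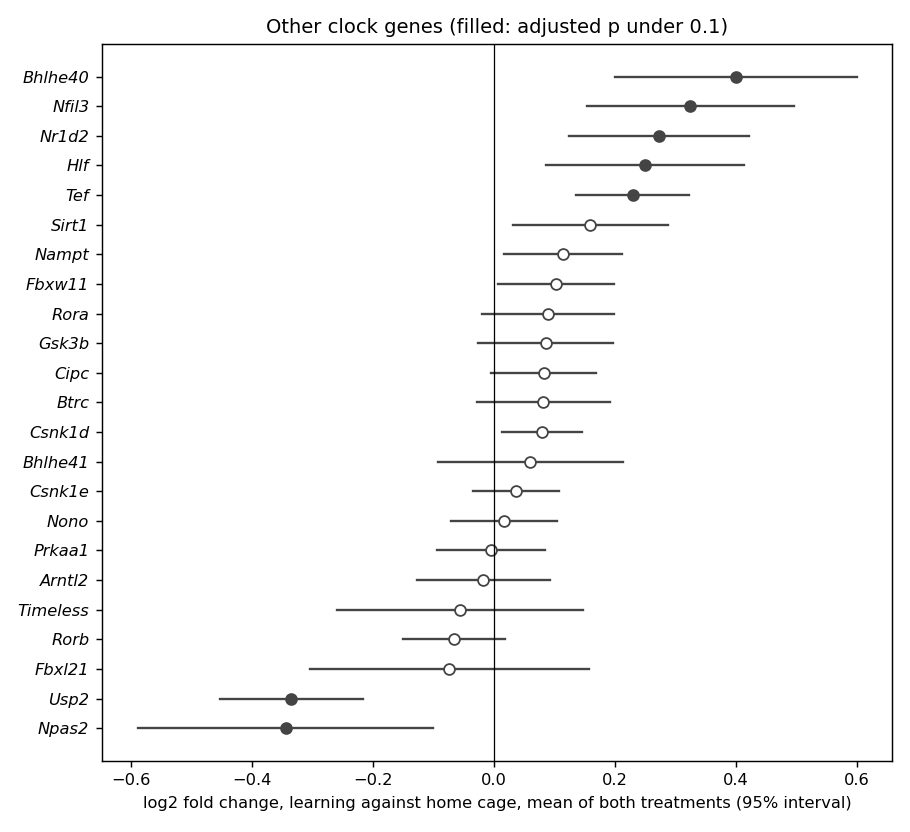
Log2 fold change for learning against home cage, averaged over both drinks (horizontal axis), with 95% intervals for 23 other clock genes, ordered by value; filled points have an adjusted p under 0.1. *Bhlhe40* stands highest at 0.40 and *Npas2* lowest at -0.34.

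Genes that the signals known to induce *Per1* and *Per2* also induce moved in the same mice, and their part in the clock results was not tested. Among all genes, 0.639% were called higher with learning under water, 3.16% under caffeine and 7.81% on average, and 6.71% were called lower on average. Of 12 targets of CREB and neuronal activity, 9 were called higher under water, 8 under caffeine and 10 on average, with average log2 fold changes of 3.45 for *Egr2*, 1.98 for *Fos* and 0.73 for *Sik1* (median of the list 0.74), and none was called lower. Of 13 glucocorticoid targets, 2 were called higher under water (*Errfi1* and *Zbtb16*), 8 under caffeine and 11 on average, among them *Tsc22d3* (0.60), *Sgk1* (0.63) and *Fkbp5* (0.34), and none was called lower. The difference between the learning responses was not called for any of these 13. For that difference 1 of them had an unadjusted p under 0.05 in edgeR, against 3.63% of all genes. Of 7 temperature-responsive genes, *Dnajb1* (0.35) and *Rbm3* (0.17) were called higher on average and *Cirbp*, which encodes an RNA-binding protein, was lower. *Cirbp* was at 63.6 ± 4.52 CPM after learning against 88.4 ± 14.1 CPM in the home cage (SD, n = 8 each). The *Cirbp* ranges did not overlap, and its log2 fold change was -0.48 (adjusted p = 0.0024 in edgeR). These lists give the setting of the *Per* genes and were chosen with results of these data known, so their counts are a description.

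The mice of a group also differed among themselves, and this variation was used to see which clock transcripts went up and down together without the learning effect. After the group mean of log2 CPM was taken off, 2 of 45 pairs of members had an adjusted p under 0.1 over the 16 mice (Pearson's r, permutation within groups, 100000 resamples, Benjamini-Hochberg over the 45 pairs). These were *Dbp* with *Ciart*, at r = 0.88 (permutation p = 6.9e-04, adjusted p = 0.031), and *Nr1d1* with *Dbp*, at r = 0.79 (permutation p = 0.0015, adjusted p = 0.0333). Spearman's rho was 0.74 (permutation p = 0.0107) and 0.76 (permutation p = 0.0041), neither of which passed the adjustment (adjusted p = 0.160 for both). Without the 2 mice farthest from the median of the first gene of the pair, r was 0.76 and 0.71. *Nr1d1* with *Ciart* (r = 0.72) and *Per2* with *Per3* (r = 0.65) came next, each with an adjusted permutation p of 0.105. *Per1* was also positive with *Ciart* (r = 0.63), *Dbp* (0.59) and *Nr1d1* (0.58). So were *Arntl* with *Cry2* (0.60) and *Clock* with *Cry1* (0.53). *Arntl* ran against *Per3* (r = -0.59) and *Per2* (r = -0.52). None of these further pairs passed the adjustment. For *Per1* and *Per2*, which both rose with learning, r within groups was -0.09.

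The low end of the *Nr1d1*, *Dbp* and *Ciart* variation was held by a few mice. Learning water replicate 24 had the lowest values of its group for *Nr1d1* (54.2 CPM), *Dbp* (37.8 CPM) and *Ciart* (6.2 CPM), and learning caffeine replicate 22 had those of its group (49.9, 43.5 and 5.57 CPM). Home cage caffeine replicate 2 was lowest for *Dbp* (34.9 CPM) and *Ciart* (3.51 CPM), and home cage water replicate 8 was lowest of its group for *Nr1d1* (63.8 CPM), *Dbp* (46.4 CPM) and *Ciart* (5.19 CPM). Replicates 24 and 22 also had the highest summed level of 6 oligodendrocyte markers in their groups, 11729 and 6857 CPM against 5040 to 5811 and 4894 to 5080 CPM in the other mice. Replicate 2 had 7443 CPM, the second highest of its group, and replicate 8 had 5369 CPM, the second lowest. Of the home cage mice, replicate 9 had the highest oligodendrocyte level of the caffeine group (8800 CPM) and also its highest *Nr1d1* level, 75.5 CPM. Replicate 6 had the highest oligodendrocyte level of the water group (7312 CPM) and also its highest *Ciart* level, 6.82 CPM. The part of tissue composition in the correlation was not tested.

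**Figure D4:**
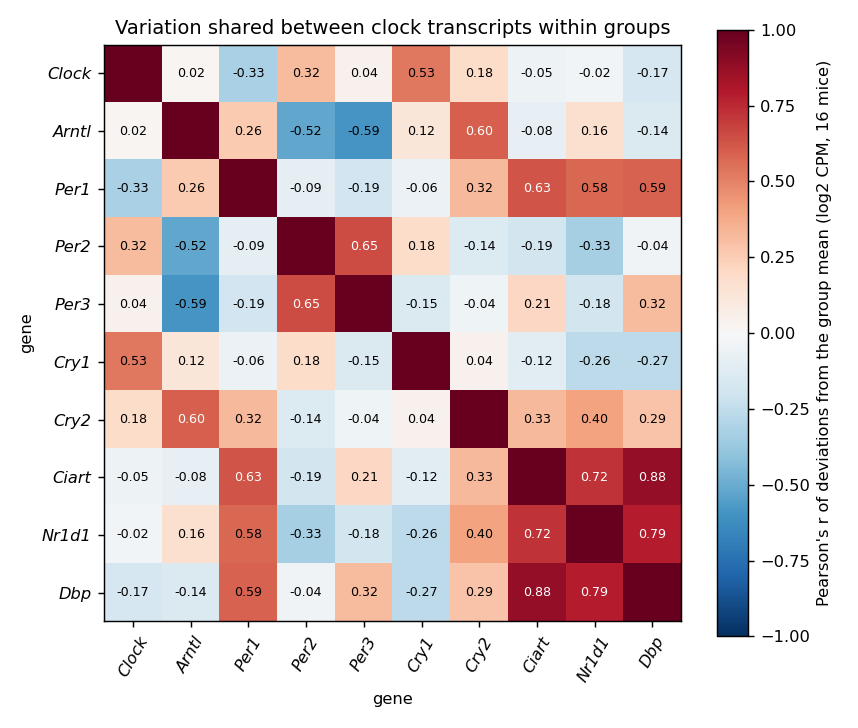
Pearson's r between the clock transcripts over 16 mice, each value being a deviation of log2 CPM from its group mean (colour scale from -1 to 1, with r printed in each cell). *Ciart*, *Nr1d1* and *Dbp* form a block of positive values from 0.72 to 0.88, and *Per1* is positive with each of them (0.58 to 0.63). *Arntl* is negative with *Per2* and *Per3* and positive with *Cry2* (0.60).

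The genes whose levels were most like those of the clock members were found among 13355 other genes whose mean log2 CPM reached 1, over the same 16 mice. By deviations from the group means, *Per1* was most like *Cbln2* (r = 0.91), *Amn* (0.86) and the activity-induced *Nr4a1* (0.85), and *Per2* was most like *Gabpa* (0.81), *Alkal2* (0.78) and *Homer1* (0.78). *Ciart* was most like *Sowahb* (0.90), *Adcyap1* (0.86), which encodes the neuropeptide PACAP, and *Cplx3* (0.85), and *Dbp* was most like *Nxph3* (0.87), *Mtfr1l* (0.86) and *Vwc2l* (0.85). *Nr1d1* was most like *Nynrin* (0.89), *Unc13c* (0.86) and *Man1c1* (0.85), and *Arntl* was most like *Sla* (0.90), *Cyp4x1* (0.85) and *Zfp687* (0.84). With the group means left in, where the learning effect itself makes values alike, *Per1* was nearest to *Sik1* (0.95) and *Junb* (0.94), both on the activity list, and *Per2* to *P4ha1* (0.96) and *Egr2* (0.95). These values are the largest of many and share libraries and tissue, so they are given as a description.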

How the data were processed

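The authors made stranded mRNA libraries from the dorsal hippocampus of 16 mice, mapped single-end reads to mm10 and counted uniquely aligned reads on Ensembl genes. The submitters' processing notes name bcl2fastq 2.17.1.14, STAR and HTSeq 0.6.1p1. They deposited raw counts per gene, whole numbers without normalization, and replicates are separate mice that were not pooled. The counting strand is not given in the sources used here.

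From these counts, edgeR 4.0.16 in R 4.3.3 was used with TMM normalization, the filterByExpr filter (17830 of 35328 genes), 1 mean per group over 16 libraries, and quasi-likelihood tests adjusted by Benjamini-Hochberg over all tested genes in each of 7 contrasts. Genes were called at an adjusted p under 0.1, the threshold used in the study. CPM are counts per 1000000 of the TMM-scaled total. Standard errors were derived from the edgeR test, as the absolute log2 fold change divided by the square root of the F statistic. The 95% intervals were built from them with a t quantile. Single genes were also compared by exact two-sided permutation tests of mean CPM over the 70 assignments of 4 mice against 4. Symbols and positions came from GENCODE M21 (35247 genes matched, 81 not) and lengths from the union of exons. Depth was 23078094 to 49949281 counts per library.

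The genes named are the 10 members, the genes of the lists described (other clock genes, activity, glucocorticoid, temperature and cell type markers), the 3 genes most like each of 6 members by each measure, and neighbours that overlap members. The list of other clock genes first held 2 more genes, which were taken out of it and are not reported here. The members and lists were chosen with earlier results of these data known. Alternatives were DESeq2 1.42.0 size factors and its Wald test, keeping every gene with 1 count or more, robust empirical Bayes, an adjusted p under 0.05, only the groups compared, each library left out in turn and, for correlations, Spearman's rho and leaving out the 2 farthest libraries. A fit without the 2 home cage libraries that stand apart and a choroid plexus covariate were chosen after seeing the data.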

Additional observations from a re-analysis of the deposited data

How the results depend on the processing

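The number of members called moved by over 1.5 times in a single fit: with the choroid plexus covariate, 1 member (*Per2*) rather than 2 was called for learning under water. Among all 17830 genes the covariate lowered the calls in this contrast from 114 higher and 59 lower to 11 and 6. The median standard error there rose from 0.104 to 0.138. For learning on average, calls fell from 1393 higher and 1197 lower to 846 and 748. *Per1*, *Per2*, *Per3* and *Arntl* kept their average learning call and direction in every alternative run, and no member reversed its direction after being called. Changes of single genes on the threshold were few. *Per3* under water was called with genes of at least 1 count kept (adjusted p = 0.0940 in edgeR), *Cry1* under water without home cage water replicate 8 (0.0993), *Cry1* under caffeine by DESeq2 (adjusted p = 0.0858) and *Cry2* on average without learning water replicate 24 (0.0804). *Ciart* under caffeine lost its call at an adjusted p under 0.05, with only the groups compared (adjusted p = 0.137 in edgeR) and without the 2 home cage libraries that stand apart (0.136), and the cause was not tested. No paired analysis was possible because the groups share no replicate number. *Ciart* had the fewest counts of the members, at 116 to 389 per library, and the part of depth in its precision was not tested.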

Other observations

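Of the other clock genes, *Nfil3* had 6.07, 7.90, 7.99 and 7.62 CPM in home cage water mice and 10.4, 8.83, 8.68 and 8.89 CPM in home cage caffeine mice. All caffeine mice were above all water mice at rest, in a contrast where the groups did not overlap for 1.99% of all genes. The log2 fold change was 0.32 (adjusted p = 0.997 in edgeR's quasi-likelihood test), so that the gene did not pass the adjustment. Of the 23 genes, 1 had an unadjusted p under 0.05 in this contrast, against 3.57% of all genes. After learning *Nfil3* had 8.76 to 11.6 CPM with water and 9.40 to 12.2 CPM with caffeine, and these ranges overlapped. The fold change of *Nfil3* with learning was 0.43 under water (adjusted p = 0.121 in edgeR) and 0.22 under caffeine (adjusted p = 0.304).

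The learning responses of the other clock genes in caffeine mice were 0.51 for *Bhlhe40* (adjusted p = 0.0527), 0.30 for *Tef* (0.0194), 0.40 for *Hlf* (0.0641) and -0.42 for *Usp2* (0.0115), all from edgeR and all called, while under water the same genes had 0.29, 0.16, 0.10 and -0.25 and were not called. The difference between the responses was not called for any of the 23 genes, and 0 of them had an unadjusted p under 0.05 for it.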
